A study of Mus musculus with 15 samples.

Results

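Interferon-induced genes were followed in mouse alveolar macrophages, with the question of whether Oas3 moved with the rest of its class or apart from it. The class was a list of 46 gene symbols, and its members were the probes annotated to exactly 1 of those symbols. Of the 46 genes, 39 had such a probe and 36 had enough values to be tested, out of 12909 genes with a probe of 1 symbol and 13273 genes or unnamed probes tested in all. The 7 genes without a probe of their own were Oas1a, Ifitm1, Bst2, Ifi35, Ifi44, Xaf1 and Gbp6. Rsad2, Usp18 and Irgm1 had values on too few arrays, and 22 of the 36 tested genes had a value on all 15 arrays.

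The study hybridised total RNA of alveolar macrophages on 2-colour spotted oligonucleotide arrays, each sample against a common macrophage reference. There were 3 groups of 5 arrays, all from doxycycline-treated mice. They were wild type (b6+/+Dox), integrin beta6 null (b6-/-Dox), and beta6 null with TGFb1 (b6-/-TGFb+/+Dox). In the last group the null mice also carried a TGFb1 transgene. Integrin beta6 pairs with alphav in epithelium and activates latent TGF-beta. The promoter and cell type that drive the TGFb1 transgene are unstated in the labels, and no wild type group with TGFb1 was analysed here. Nothing in the labels ties the 5 arrays of a group to separate mice, so p-values measure only the spread between these arrays, which may be technical.

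Type I interferons bind a shared receptor on nearly all cells and signal through JAK kinases to switch on a large set of genes at once, while interferon gamma acts through its own receptor on an overlapping set. In alveolar macrophages, the first phagocytes to meet inhaled viruses, these genes supply RNA sensors, enzymes that degrade or edit viral RNA, membrane proteins that block viral entry, GTPases that attack the vacuoles of parasites and bacteria, and parts of the antigen-presentation machinery. The Oas enzymes bind double-stranded RNA and make 2'-5' linked oligoadenylates, which activate ribonuclease L. Many such genes carry an interferon-stimulated response element near their start, a site bound by interferon regulatory factors.

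Promoters are shown for Oas3, the single member that passed the test, and for Oas1g, Ifitm3 and Tgtp1, whose values lay on the other side of wild type in the null. Each runs 5' to 3' on the gene's strand from 250 bases before to 50 bases after the annotated start, as given by RefSeq for GRCm38.p6, and capitals mark every match, read on both strands, to the core of the response element: GAAA, any 2 bases, then GAAA.
Oas3 (chr5:120777610-120777909, minus strand): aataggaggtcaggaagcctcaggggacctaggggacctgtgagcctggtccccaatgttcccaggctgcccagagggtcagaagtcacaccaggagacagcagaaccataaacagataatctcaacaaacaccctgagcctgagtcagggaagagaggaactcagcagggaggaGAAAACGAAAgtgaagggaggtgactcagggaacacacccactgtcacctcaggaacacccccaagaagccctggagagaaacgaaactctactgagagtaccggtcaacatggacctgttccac
Oas1g (chr5:120887564-120887863, minus strand): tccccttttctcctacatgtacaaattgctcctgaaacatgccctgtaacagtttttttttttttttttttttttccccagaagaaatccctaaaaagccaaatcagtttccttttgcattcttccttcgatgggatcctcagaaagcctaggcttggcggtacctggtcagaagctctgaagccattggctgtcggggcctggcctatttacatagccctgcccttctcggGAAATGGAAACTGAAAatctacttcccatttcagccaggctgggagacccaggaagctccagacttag
Ifitm3 (chr7:141010695-141010994, minus strand): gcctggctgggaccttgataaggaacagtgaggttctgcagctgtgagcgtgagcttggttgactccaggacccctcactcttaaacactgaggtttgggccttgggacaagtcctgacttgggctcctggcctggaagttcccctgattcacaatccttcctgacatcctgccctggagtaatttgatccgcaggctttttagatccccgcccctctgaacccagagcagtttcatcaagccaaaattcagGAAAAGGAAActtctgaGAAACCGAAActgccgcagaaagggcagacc
Tgtp1 (chr11:48992197-48992496, minus strand): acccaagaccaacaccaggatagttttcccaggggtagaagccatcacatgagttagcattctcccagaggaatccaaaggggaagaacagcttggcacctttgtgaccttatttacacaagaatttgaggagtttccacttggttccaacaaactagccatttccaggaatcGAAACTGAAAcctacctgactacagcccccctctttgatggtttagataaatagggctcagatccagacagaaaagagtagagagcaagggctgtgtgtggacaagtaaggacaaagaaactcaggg

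The window of Oas3 held 1 match, which began 75 bases before the start. Oas1g held 2 matches that overlap each other, beginning 18 and 12 bases before the start. Ifitm3 held 2 separate matches after the start, and Tgtp1 held 1 match that began 77 bases before it. Across the class, 34 of the 46 genes had a promoter in the table, and 20 of these 34 genes (58.8%) held the motif, against 3.99% of 27025 genes with promoters of the same length. The longer motif with a further C at its 3' end, which contains the shorter one, was present for 15 of the 34 genes (44.1%) and for 0.944% of all genes. By role, all 5 GTPase genes with a promoter held the shorter motif, as did 3 of 5 Oas family genes, 7 of 12 other antiviral effectors, 5 of 9 genes of the ISG15 and sensing group, and 0 of 3 genes of the MHC class I supply group. All 4 genes printed above held the motif, although Oas3 differed from wild type in the opposite direction to the other 3. With only 1 gene lower in the null printed, these 4 cannot show whether the motif goes with direction. A match describes letters in a window and not a used site.

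Each value below is a log2 ratio of sample to reference with the array's median set to 0. The base and direction were not stated. Base 2 is taken, and sample over reference is likely, from the order of the channels in the labels and because Mmp12, known to rise in macrophages of beta6 null mice, was higher in the null by 4.31 ± 0.42 (SE), with a limma adjusted p of 1.83e-04. The arrays differed in spread (SD of all log2 ratios from 0.841 to 2.008), and wild type array 2 and beta6 null array 1 were the widest and had the fewest values. Between 11590 and 16457 of 17195 probes had a value on an array, and between 33 and 42 of the 42 member probes. Correlations over all probes ranged from 0.216 to 0.576 between arrays of 1 group (median 0.4) and from 0.194 to 0.52 between arrays of different groups (median 0.359). Because the samples are bulk RNA, fewer cells of a type and less RNA per cell cannot be told apart.

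Oas3 was lower in the beta6 null than in wild type and higher again with TGFb1. It was the only member, of 36 tested, to pass in either comparison. A member that did not pass, here or below, is not thereby shown to be unchanged. Between null and wild type the other members differed by -1.53 to 2.27. Ifitm3, at 2.27, did not pass (limma adjusted p = 0.0731). The log2 ratio of Oas3 on wild type arrays 1 to 5 was 1.40, 1.88, 1.38, 1.18 and 1.56 (mean 1.48 ± 0.26 SD, n = 5). On the beta6 null arrays it was -1.45, -2.24, -1.92, -1.72 and -1.21 (mean -1.71 ± 0.40 SD, n = 5). All 5 null arrays lay below all 5 wild type arrays, with no value between -1.21 and 1.18. With TGFb1 the ratio was -0.42, 1.45, 1.32, 1.56 and 0.04 (mean 0.79 ± 0.91 SD, n = 5). Arrays 2, 3 and 4 of that group lay within the wild type range, and arrays 1 and 5 lay between the ranges of the other groups.

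The difference of Oas3 between null and wild type was -3.19 ± 0.38 (SE) on the log2 scale, a 9.11-fold lower ratio (limma, adjusted p = 6.28e-04 over all 13273 features). In that comparison 0.588% of all features were called lower, 0.362% higher and 0.949% in either direction, against 1 of 36 members. The difference between null with TGFb1 and null was 2.49 ± 0.38 (SE), a 5.63-fold higher ratio (limma, adjusted p = 0.00673). Here 0.58% of all features were called higher and 0.708% in either direction, again against 1 of 36 members. The second call was lost after quantile normalization (2.37, adjusted p = 0.0546) and with array spreads made equal (2.54, adjusted p = 0.0729). These 2 comparisons share the 5 null arrays, so they are not independent. Between null with TGFb1 and wild type Oas3 differed by -0.69 ± 0.38 (limma, adjusted p = 0.820), and no member and no feature of the whole table passed (percent called 0), while 6.28% of features had an unadjusted p under 0.05.

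**Figure D1:**
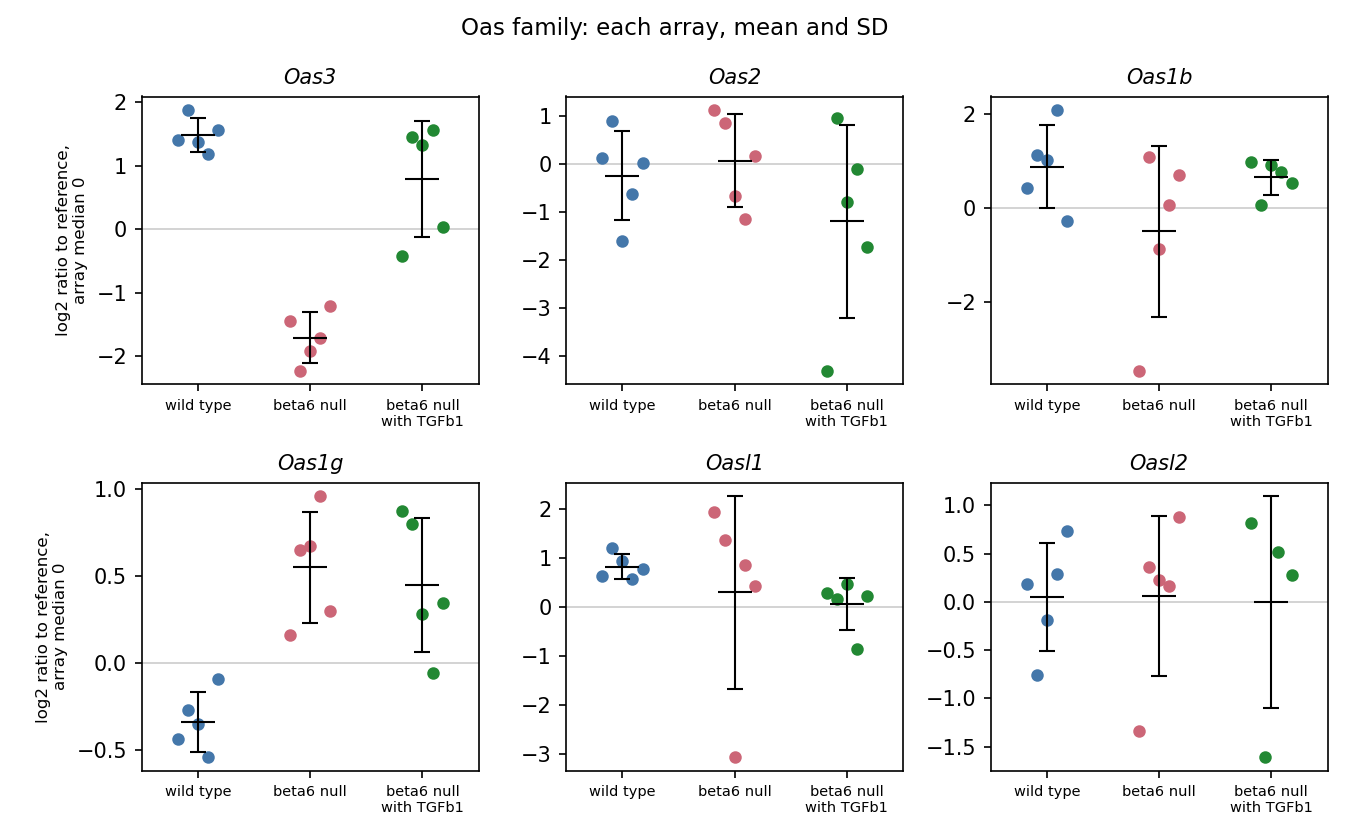
Log2 ratio to the reference (array median 0, vertical axis) of 6 Oas family genes on each array of the 3 groups; points are arrays, bars the mean and SD. The beta6 null arrays of Oas3 sit between -2.24 and -1.21, below all others, while null and wild type overlap in Oas2, Oas1b, Oasl1 and Oasl2, and in Oas1g the null lies above wild type.

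Inside the Oas family the other 5 tested genes of the class did not pass, and their differences between null and wild type had both signs. Oas1c and Oas1h, outside the class, are given below. Oas2, the gene next to Oas3 on chromosome 5 and also an oligoadenylate synthetase, gave 0.11, 0.88, -1.61, -0.63 and 0.02 in wild type, 1.13, 0.85, -0.67, -1.15 and 0.16 in the null, and -4.32, 0.96, -0.80, -0.10 and -1.74 with TGFb1. The 3 groups overlapped, and the null differed from wild type by 0.31 ± 0.81 (SE, adjusted p = 0.912). Oas1b, linked to flavivirus resistance in mice and listed as a transcribed pseudogene in the GRCm38.p6 table, had wild type values from -0.29 to 2.09 (median 1.02), null values from -3.47 to 1.09 (median 0.07) and values from 0.06 to 0.98 with TGFb1 (median 0.77). Its groups overlapped too, with a difference of -1.37 ± 0.70 (SE, adjusted p = 0.470) between null and wild type and of 1.15 ± 0.70 (SE) between null with TGFb1 and null. Without null array 1, where Oas1b was at -3.47, these differences were -0.63 and 0.40.

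Oas1g, a synthetase gene of the Oas1 cluster, ran the other way. Its log2 ratio was -0.44, -0.27, -0.35, -0.54 and -0.09 in wild type, 0.16, 0.65, 0.67, 0.96 and 0.30 in the null, and 0.87, 0.80, 0.28, -0.06 and 0.34 with TGFb1. Both null groups lay wholly above wild type and overlapped each other. The difference was 0.88 ± 0.25 (SE, adjusted p = 0.141) for null against wild type and 0.78 ± 0.25 (SE, adjusted p = 0.757) for null with TGFb1 against wild type, and neither passed. The synthetase-like genes Oasl1, a repressor of Irf7 translation, and Oasl2 differed between null and wild type by -0.52 ± 0.70 (SE) and 0.01 ± 0.51 (SE). Oasl1 with TGFb1 (-0.86 to 0.48) lay below wild type (0.57 to 1.21), and the null (-3.07 to 1.94) spanned both. Over the 6 family genes of the class the median difference was -0.26 for null against wild type, -0.08 for null with TGFb1 against null and -0.46 for null with TGFb1 against wild type.

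The genes around Oas3 on chromosome 5 gave a further view of the locus. Of the 5 genes on each side in the order of the RefSeq table, 7 had a probe, 5 were tested and none passed. Between null and wild type, Ddx54, an RNA helicase gene, differed by 0.02 ± 0.48 (SE), Oas1c by -0.08 ± 0.37 (SE) and Oas1h by 0.54 ± 0.94 (SE), beside the values of Oas2 and Oas1b above. All of these differences were smaller than that of Oas3. The Oas1 genes are close copies of each other, so which copy a probe bound was not tested.

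**Figure D2:**
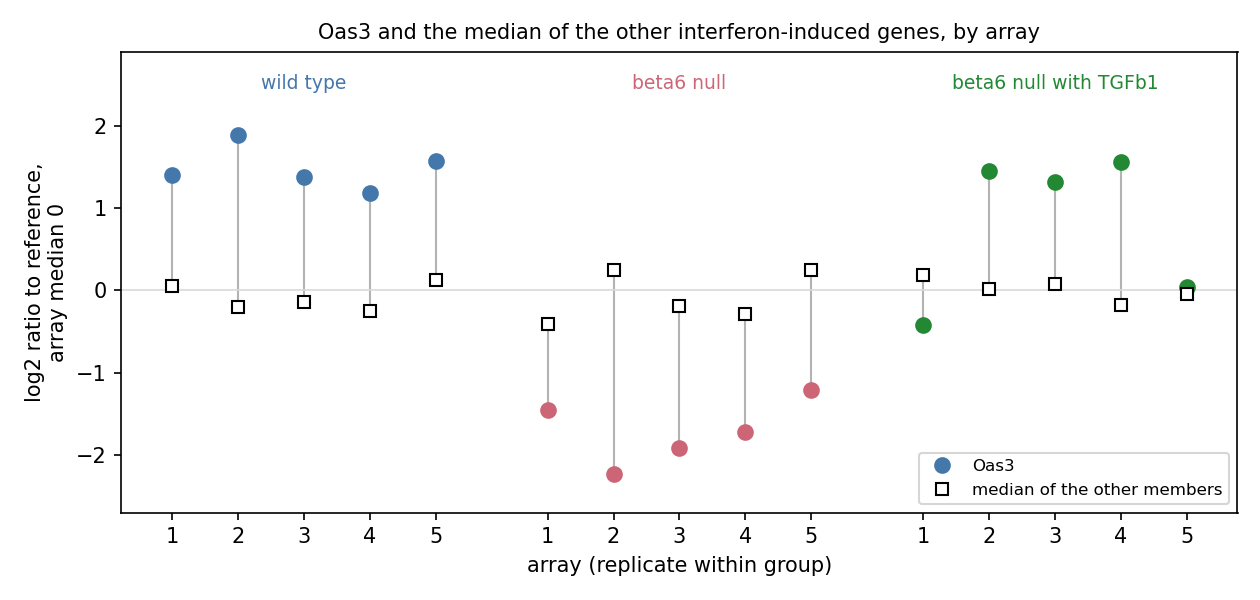
Log2 ratio to the reference (array median 0) of Oas3 (filled circles) and the median of the other members with a value (open squares) on each array, numbered within its group. The medians stay between -0.41 and 0.25 on all 15 arrays, while Oas3 lies above them on all 5 wild type arrays and below them on all 5 beta6 null arrays.

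Set beside the median of the rest of the class on the same array, Oas3 lay above it in wild type and below it in the null. Oas3 was chosen with earlier results of these data known, so this describes the values and is no test. A median of members that differ in both signs can stay near 0 while single members differ. Ifitm3 had a mean of 2.31 in the null and 0.04 in wild type, and Trim25 of -1.06 and 0.47. The median log2 ratio of the other members (29 to 35 of them with a value) lay between -0.41 and 0.25 on every array, and its group mean was -0.08 in wild type, -0.08 in the null and 0.01 with TGFb1. Oas3 exceeded that median by 1.56 ± 0.30 (SD, n = 5) in wild type, lay at -1.63 ± 0.53 (SD, n = 5) relative to it in the null, and at 0.77 ± 0.99 (SD, n = 5) with TGFb1. Ranked by log2 ratio among the members of an array, Oas3 was between the top and the fourth place on wild type arrays. On the null arrays it ranked between 27 of 33 and 35 of 36. With TGFb1 it held rank 24 of 34, 2 of 36, 1 of 35, 1 of 36 and 17 of 35. These ranks order ratios to the reference and not levels of RNA between genes.

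The TGFb1 arrays fell apart by the number that ends the array's title, 1 or 2, whose meaning the labels do not give. The 3 TGFb1 arrays ending in 1 had Oas3 ratios from 1.32 to 1.56, and the 2 ending in 2 had -0.42 and 0.04. Among arrays ending in 1 the null differed from wild type by -3.47 and null with TGFb1 from null by 3.27, with 2 wild type, 4 null and 3 TGFb1 arrays. Among arrays ending in 2 the same differences were -2.58 and 1.02, with 3 wild type, 1 null and 2 TGFb1 arrays. With that number as a block the differences were -3.41 ± 0.38 (SE, limma adjusted p = 5.91e-04) and 2.61 ± 0.37 (SE, limma adjusted p = 0.00655). The direction was the same within each number, and the second difference was larger among arrays ending in 1.

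The X-inactivation RNA Xist, which is made in female cells, differed between the groups in the direction opposite to Oas3. Its log2 ratio ranged from -4.14 to -2.37 in wild type, from -2.46 to 0.88 in the null and from -3.48 to -2.27 with TGFb1, with a difference between null and wild type of 2.69 ± 0.59 (SE, limma adjusted p = 0.0444). With Xist as a covariate the Oas3 differences were -2.88 ± 0.63 (SE, adjusted p = 0.160) and 2.19 ± 0.63 (SE, adjusted p = 0.489), of the same sign, and no feature of the table passed in either comparison. The labels leave the sex of the mice unstated, and its part in the result was not tested.

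**Figure D3:**
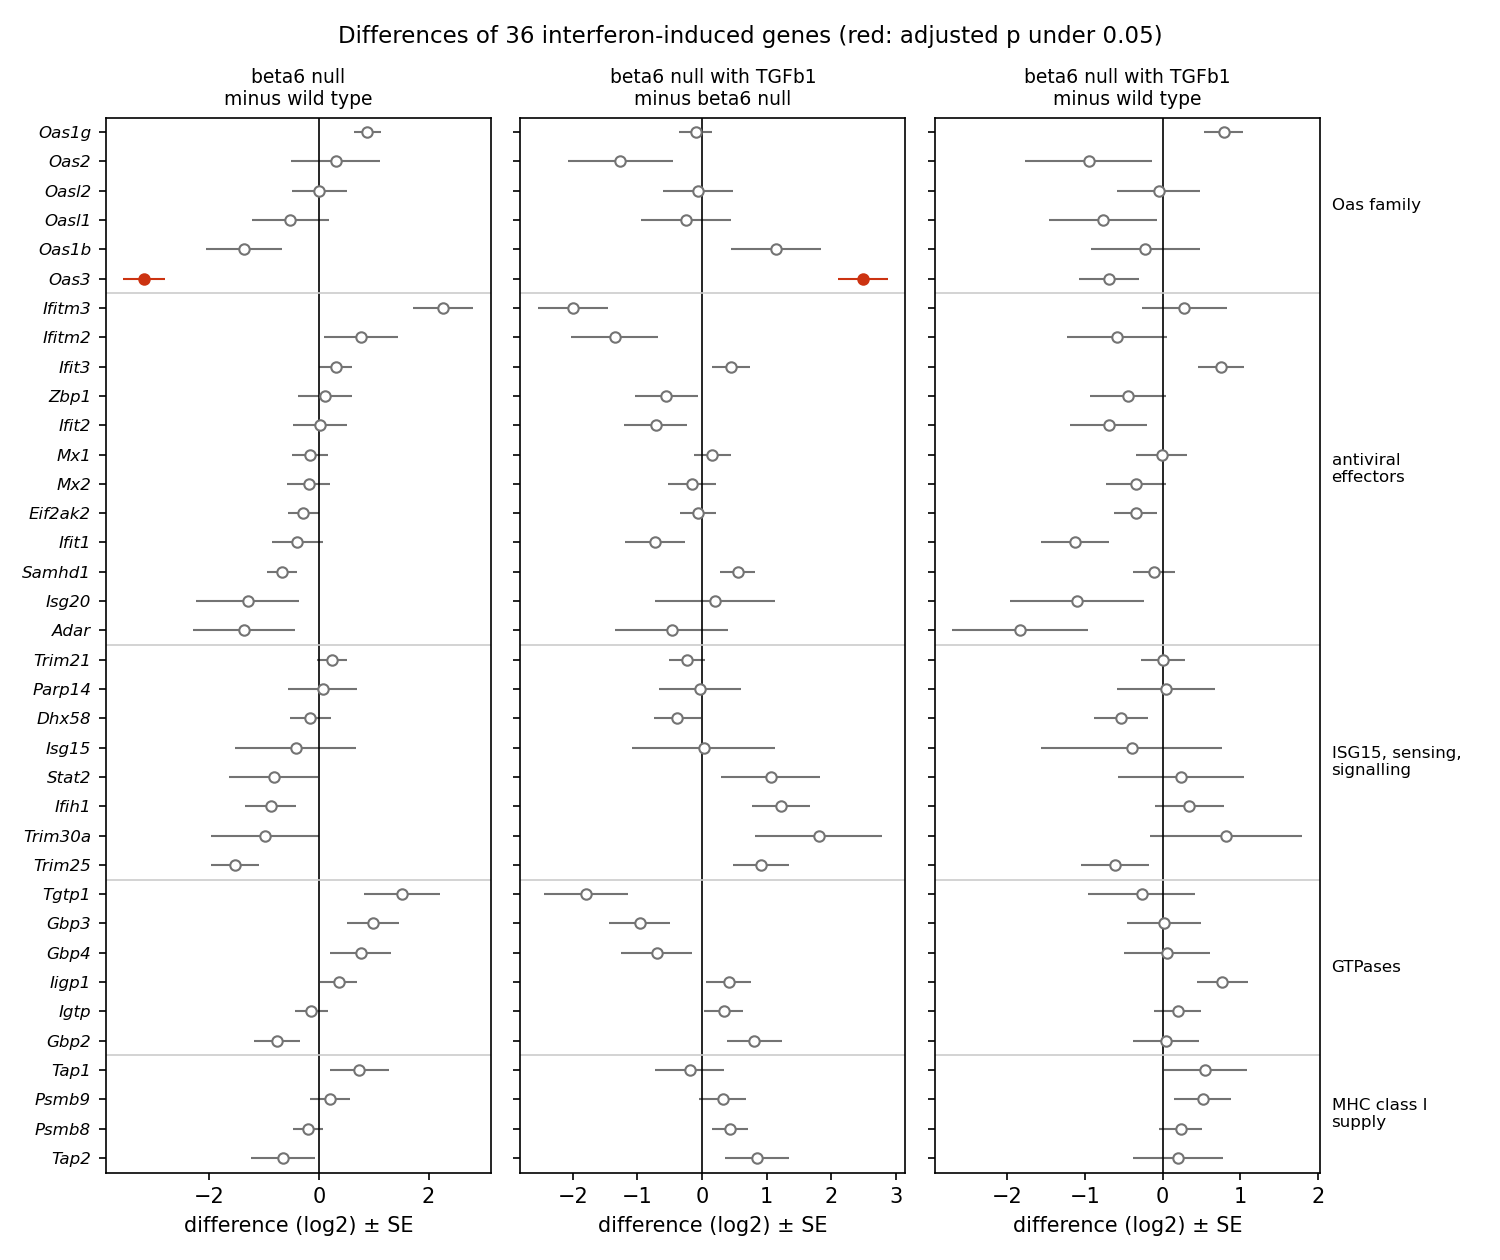
Difference of the log2 ratio (horizontal axis, ± SE) for the 36 tested members, ordered by role, in 3 comparisons; red marks an adjusted p under 0.05. Oas3 is the only red point, at -3.19 for beta6 null against wild type and at 2.49 for beta6 null with TGFb1 against beta6 null.

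Across the class, the 36 differences between null and wild type had a median of -0.16, against -0.05 over all features, with 16 above 0 and 20 below. An unadjusted p under 0.05 was reached by 6 members (3 higher, 3 lower; 16.7%), against 11.5% of all features. Null and wild type did not overlap for 6 members, Ifitm3, Oas1g and Tgtp1 higher and Oas3, Trim25 and Adar lower, while 5.12% of all features were apart, 2.06% higher and 3.06% lower. For null with TGFb1 against null the median was -0.05 (0.12 over all features), 4 members (11.1%) had an unadjusted p under 0.05 against 15% of all features, and the groups were apart for 1 member upward, Oas3, and 1 downward, Ifitm3 (all features 8.26%, with 6.36% upward and 1.91% downward). For null with TGFb1 against wild type the median was -0.03 (0.07 over all features), with an unadjusted p under 0.05 for 4 members (11.1%) against 6.28% of all features. Oas1g lay wholly above wild type there, and Trim25 and Oasl1 wholly below it (all features 2.88%, with 1.79% above and 1.09% below). In another setting, limma array weights, arrays that scattered more around their group means counted less. With these weights Oas1g (0.97, adjusted p = 0.0296), Trim25 (-1.08, adjusted p = 0.0356) and Samhd1 (-0.83, adjusted p = 0.0396) also passed for null against wild type. Ifih1 (1.37, adjusted p = 0.0246) also passed for null with TGFb1 against null. That setting called 3.26% of all features in the first comparison, against 4 of 36 members (11.1%), and 7.53% in the second, against 2 of 36 members (5.56%). The members' differences thus had both signs in every comparison, and each pair of comparisons shares a group of arrays.

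Among the other direct antiviral effectors 12 genes were tested and none passed; the median difference was -0.18 for null against wild type, -0.31 for null with TGFb1 against null and -0.39 for null with TGFb1 against wild type. Ifitm3, a membrane protein that blocks fusion of viruses in endosomes, had the largest difference above 0 between null and wild type. Its log2 ratio was 0.07, -0.56, 0.18, 0.35 and 0.14 in wild type, 3.81, 3.78, 1.67, 1.19 and 1.08 in the null, and 0.98, 1.04, 0.09, -0.51 and -0.04 with TGFb1. The null lay wholly above both other groups, and null arrays 1 and 2 stood highest. The difference was 2.27 ± 0.55 (SE, adjusted p = 0.0731) for null against wild type and -1.995 ± 0.55 (SE, adjusted p = 0.104) for null with TGFb1 against null, both short of the threshold. The first passed in only 2 of 28 alternatives. It passed in the fit limited to genes with a value on all 15 arrays (limma adjusted p = 0.0365). It also passed without beta6 null array 5 (2.58, limma adjusted p = 0.0397). Over the 28 alternatives this difference of Ifitm3 ranged from 1.27 to 2.58, with limma adjusted p up to 0.621. Ifitm2, its neighbour in the same family, had differences of 0.76 ± 0.68 (SE) and -1.35 ± 0.68 (SE).

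Samhd1, which depletes the nucleotides that reverse transcription needs, had values from -0.65 to 0.09 in wild type (median -0.44), from -1.27 to -0.46 in the null (median -1.08) and from -0.97 to 0.19 with TGFb1 (median -0.45). The groups overlapped, and the null differed from wild type by -0.67 ± 0.27 (SE, adjusted p = 0.345). Adar, which converts adenosine to inosine in double-stranded RNA, had values on 3 wild type arrays (0.80 to 1.79), 3 null arrays (-0.96 to 0.35) and 4 TGFb1 arrays (-3.24 to 0.88). Wild type and null did not overlap, but the difference, -1.37 ± 0.93 (SE, adjusted p = 0.595), was within 2 standard errors of 0. The Ifit genes, which bind viral RNA ends, differed between null with TGFb1 and wild type in both signs: Ifit1 by -1.13 ± 0.44 (SE), Ifit2 by -0.70 ± 0.49 (SE) and Ifit3 by 0.75 ± 0.30 (SE), with adjusted p of at least 0.787. Mx1 and Mx2, GTPases that block viral replication, differed between null and wild type by -0.17 ± 0.33 (SE) and -0.19 ± 0.39 (SE).

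**Figure D4:**
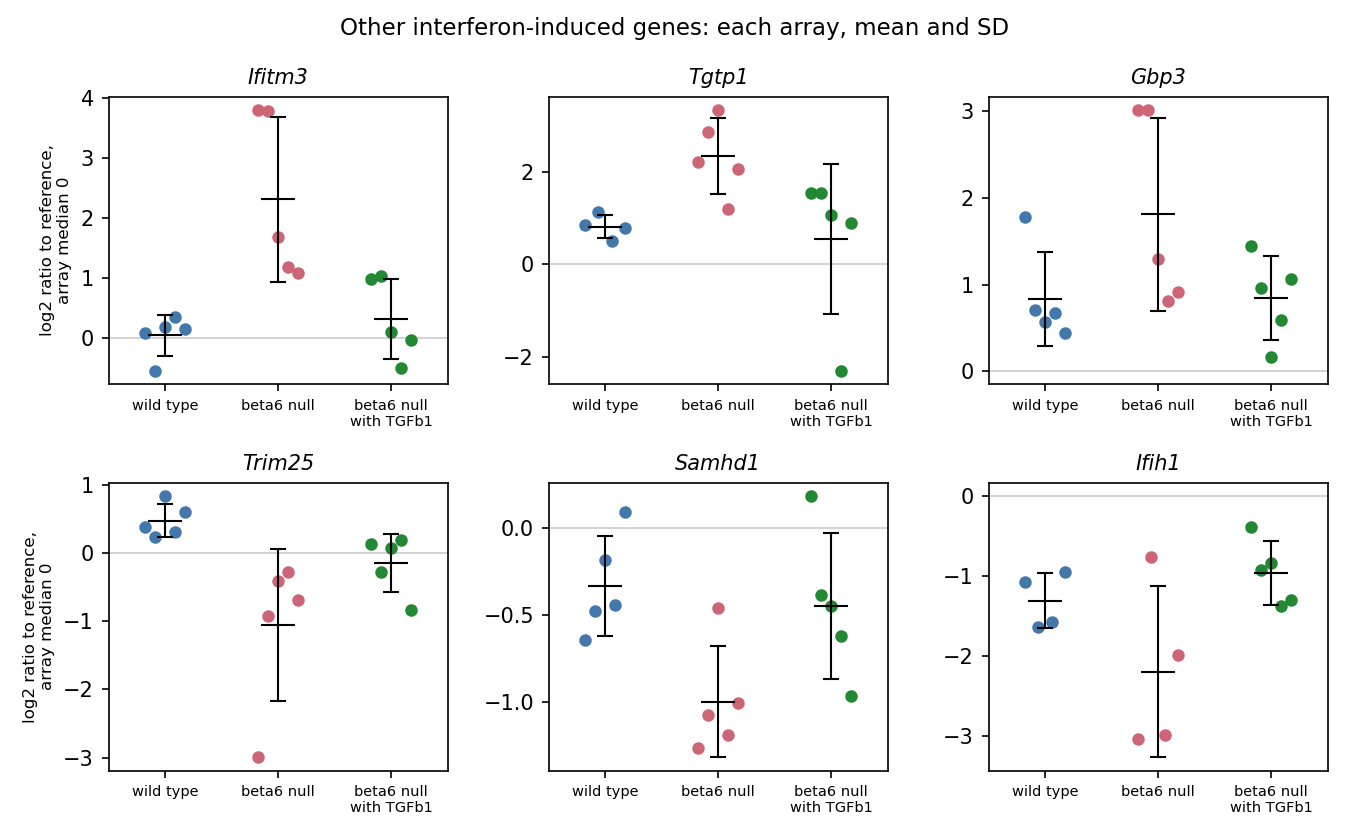
Log2 ratio to the reference (array median 0, vertical axis) of Ifitm3, Tgtp1, Gbp3, Trim25, Samhd1 and Ifih1 on each array of the 3 groups; points are arrays, bars the mean and SD. Ifitm3 in the null starts at 1.08, above every wild type and TGFb1 array, and Trim25 in the null ends at -0.28, below every wild type array.

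In the group of the ISG15 system, RNA sensing and signalling 8 genes were tested and none passed, with 6 of 8 differences below 0 between null and wild type (median -0.63), a median of 0.47 for null with TGFb1 against null and of 0.02 for null with TGFb1 against wild type. Trim25, the ubiquitin ligase that activates the RNA sensor RIG-I, was at 0.37, 0.24, 0.83, 0.30 and 0.60 in wild type, -2.998, -0.93, -0.41, -0.28 and -0.68 in the null, and 0.13, -0.28, 0.07, 0.18 and -0.83 with TGFb1. Null and wild type were apart, and null array 1 was far below the rest. The difference was -1.53 ± 0.44 (SE, adjusted p = 0.141), and it was -1.05 without null array 1; both of its probes were lower in the null. Ifih1, which encodes the RNA sensor MDA5, had values from -1.63 to -0.95 on 4 wild type arrays, from -3.04 to -0.76 on 4 null arrays and from -1.38 to -0.39 with TGFb1. These overlapped, with a difference of -0.88 ± 0.47 (SE, adjusted p = 0.495) between null and wild type and of 1.23 ± 0.45 (SE, adjusted p = 0.216) between null with TGFb1 and null. Isg15, a ubiquitin-like modifier, differed by -0.43 ± 1.10 (SE) between null and wild type, Stat2 by -0.82 ± 0.81 (SE), and Dhx58, a regulator of the same RNA sensors, by -0.16 ± 0.37 (SE). Parp14, an ADP-ribosyltransferase with 2 probes, differed by 0.07 ± 0.63 (SE), and 1 of its probes had values on 9 of 15 arrays, so its average rests on different spots in different arrays.

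The interferon-inducible GTPases, which coat and rupture pathogen vacuoles, had 6 genes tested and none passed; 4 of 6 differences between null and wild type were above 0 (median 0.56), and the medians were -0.18 for null with TGFb1 against null and 0.05 for null with TGFb1 against wild type. Tgtp1 was at 0.84, 1.13, 0.51 and 0.78 on 4 wild type arrays, at 2.23, 2.86, 3.35, 1.19 and 2.06 in the null, and at 1.55, 1.54, 1.07, -2.32 and 0.89 with TGFb1. The null lay above wild type without overlap, but only narrowly, and the TGFb1 arrays reached into both ranges. The differences were 1.52 ± 0.69 (SE, adjusted p = 0.419) for null against wild type and -1.79 ± 0.65 (SE, adjusted p = 0.212) for null with TGFb1 against null. Among the guanylate-binding proteins, Gbp3 differed by 0.98 ± 0.47 (SE, adjusted p = 0.447) and Gbp2 by -0.76 ± 0.42 (SE, adjusted p = 0.504) between null and wild type, and by -0.97 ± 0.47 (SE) and 0.81 ± 0.42 (SE) between null with TGFb1 and null. These 2 closely related genes thus had differences of opposite sign in both comparisons, neither passing. Iigp1 stood 0.77 ± 0.32 (SE, adjusted p = 0.787) above wild type with TGFb1.

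The 4 genes that supply peptides to MHC class I, the transporter subunits Tap1 and Tap2 and the immunoproteasome subunits Psmb8 and Psmb9, did not pass. Between null and wild type Tap1 differed by 0.74 ± 0.53 (SE), Tap2 by -0.65 ± 0.58 (SE), Psmb8 by -0.20 ± 0.27 (SE) and Psmb9 by 0.20 ± 0.36 (SE). With TGFb1 all 4 were above wild type, between 0.20 for Tap2 and 0.55 for Tap1, each within 2 standard errors of 0. Without wild type array 2, where Tap1 was at -3.53, Tap1 differed by 0.13 between null and wild type and by -0.06 between null with TGFb1 and wild type.

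Of the 3 members measured on too few arrays, Rsad2, the antiviral enzyme viperin, was at 1.71 and 1.88 on 2 wild type arrays, 1.17 on 1 null array and -1.89 on 1 TGFb1 array. Usp18, which removes ISG15 from proteins, ranged from -1.18 to 0.71 over 7 arrays, as the mean of 2 probes where both had a value. These probes had opposite signs on null array 5 (1.25 and -1.10), wild type array 4 (-0.86 and 0.26) and TGFb1 array 5 (0.84 and -0.85). On TGFb1 array 2 they had the same sign (0.15 and 0.57). Irgm1, a GTPase of autophagy, ranged from -6.03 to 0.22 over 10 arrays. No comparison was made for them.

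Genes upstream and beside the class came from 6 further lists. Of 12 interferon genes, 3 were tested and none passed; Ifng, the macrophage-activating interferon, differed by 1.34 ± 0.50 (SE, adjusted p = 0.320) between null and wild type and by -1.53 ± 0.55 (SE, adjusted p = 0.216) between null with TGFb1 and null. Of 13 tested genes for interferon receptors and JAK-STAT signalling none passed, and the smallest unadjusted p-values for null against wild type belonged to the interferon gamma receptor chains Ifngr1 (0.55 ± 0.24 SE) and Ifngr2 (1.62 ± 0.74 SE). Of 9 tested interferon regulatory factors and repressors 1 passed: Prdm1, which encodes the repressor Blimp-1, fell by 3.28 on the log2 scale in the null (SE 0.53, adjusted p = 0.00760). Prdm1 was at -0.27, 1.44, 0.35, 0.11 and 0.67 in wild type, at -2.47, -4.38, -2.72 and -1.71 on 4 null arrays, and at -1.46, -1.20, 0.09, -0.81 and -1.66 with TGFb1. All 4 null values lay below every array of the other groups, and the lowest TGFb1 array, at -1.66, was close to the highest null array.

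Of 8 tested sensors and adaptors that lead to interferon production none passed. Tlr7, the endosomal receptor for single-stranded RNA, differed by -1.69 ± 0.49 (SE, adjusted p = 0.157) between null and wild type and by 1.91 ± 0.47 (SE, adjusted p = 0.0767) between null with TGFb1 and null, and its adaptor Myd88 by -0.56 ± 0.21 (SE) and 0.41 ± 0.21 (SE). A further 37 interferon-induced genes outside the class were tested and none passed in any comparison, with medians of -0.08, 0.13 and 0.08; Epsti1 differed by 1.05 ± 0.30 (SE, adjusted p = 0.138) and the proteasome activator Psme2 by -0.92 ± 0.35 (SE, adjusted p = 0.318) between null and wild type. Of the ribonuclease L pathway, on which the product of Oas3 acts, only the inhibitor Abce1 was tested, and it differed by -0.05 ± 0.44 (SE) between null and wild type.

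Markers of other cells were read beside these values as ratios to a macrophage reference, which cannot show that a cell type was present or absent. Of the alveolar macrophage list, 9 of 12 markers had a probe and 7 had values on all arrays. Their mean log2 ratio ran from -2.43 to -0.80 in wild type, from -2.08 to -1.88 in the null and from -1.59 to -0.81 with TGFb1. The mean of 4 epithelial markers ran from -1.73 to -0.31, from -2.53 to -1.61 and from -1.32 to -0.70, and that of 2 dendritic cell and monocyte markers from -0.09 to 1.15, from 0.74 to 1.92 and from 0.17 to 1.04. Between null and wild type 1 of 7 tested neutrophil markers passed, S100a8, which rose by 2.13 ± 0.29 (SE); 3 of the 7 differences were above 0 and the median was -0.12. Of 9 tested epithelial markers 3 passed: Sftpc was higher by 2.18 ± 0.47 (SE), and Krt19 (difference -2.01 ± 0.40 SE) and Epcam (difference -2.34 ± 0.42 SE) were lower. No marker passed among the 4 tested of B and plasma cells (all 4 above 0, median 1.41), the 8 of T and NK cells (4 above 0) or the 7 of dendritic cells and monocytes (6 above 0, median 0.61). Of the 9 tested alveolar macrophage markers none passed for null against wild type, with 7 below 0 (median -0.46). For null with TGFb1 against null all 9 were above 0 (median 0.73) and 1 passed. Of these 9, 5 had an unadjusted limma p under 0.05 (55.6%), against 15% of all features. In that comparison 2 of 9 epithelial markers also passed, both higher, but 5 of 9 were below 0 (median -0.21). No marker of the other lists passed in it. The part of these markers in the Oas3 result was not tested.

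**Figure D5:**
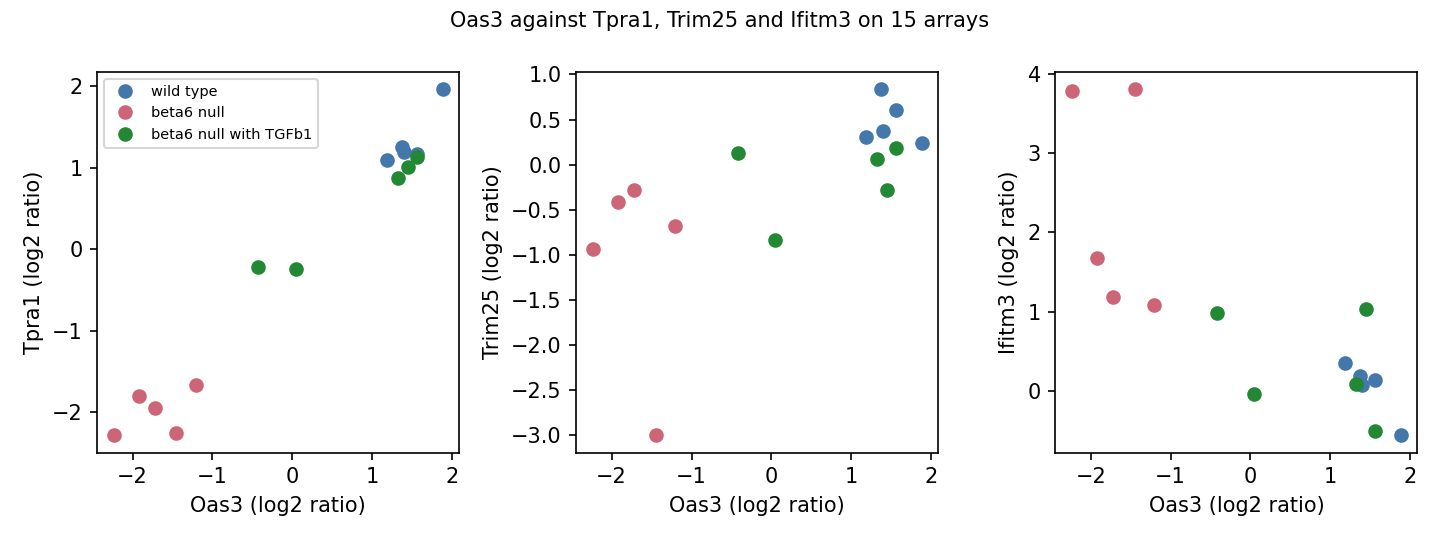
Log2 ratio of Tpra1, Trim25 and Ifitm3 (vertical axes) against that of Oas3 (horizontal axis) on each of 15 arrays, coloured by group. Tpra1 follows Oas3 along the whole range, r = 0.985, whereas Ifitm3 is highest on the beta6 null arrays where Oas3 is lowest, r = -0.794.

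Likeness to Oas3 was described by Pearson's r across arrays for 10095 genes with both values on at least 12 arrays; all points share the reference and the group means. The gene most like Oas3 was Tpra1, which encodes a membrane protein, with r = 0.985 over 15 arrays and 0.886 after each group's mean was removed. Tpra1 ran from 1.09 to 1.96 in wild type and from -2.28 to -1.67 in the null, and with TGFb1 it was at -0.22, 1.004, 0.88, 1.13 and -0.25, so that the same TGFb1 arrays, 1 and 5, stood apart. Next came Gdap2 (r = 0.929), Fabp1, a liver-type fatty acid-binding protein (0.912), Desi1 (0.910) and Sycn (0.906), whose r within groups was only 0.397, 0.220, 0.217 and 0.445. None of these 5 genes belongs to the interferon class.

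Within the class, 33 genes could be ranked in this way, and their median r with Oas3 was 0.055, against 0.05 over all genes. Trim25 (0.640), Samhd1 (0.575) and Ifih1 (0.526) were above 0.5, which is 9.09% of the ranked members against 11.9% of all genes. Gbp3 (-0.622), Oas1g (-0.651), Tgtp1 (-0.691) and Ifitm3 (-0.794) were below -0.5, which is 12.1% against 5.94% of all genes. After removal of the group means the median r of the members was -0.134, against -0.021 over all genes. Oas2 (0.748) and Ifit2 (0.593) were then above 0.5, 2 of 33 members, against 4.13% of all genes. Dhx58 (-0.597) was below -0.5, 1 of 33 members, against 2.65% of all genes. On TGFb1 array 1, the lowest of its group for Oas3, Oas2 was at -4.32 and Ifit2 at -3.08, also the lowest of that group. On TGFb1 array 5, the next lowest for Oas3, Oas2 was also next lowest at -1.74, but Ifit2, at -0.18, was not. The arrays on which Oas3 was low or high were therefore not in general the arrays on which its class was low or high.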

How the data were processed

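Deposited values were log ratios of 2-colour spotted arrays, taken here as log2; the authors' background correction, normalization, log base, ratio direction and genome build are not given in the sources used here. Probes were named from the platform annotation through current symbols: 13972 of 17195 probes carried 1 symbol and 13 several, and 30 control spots were left out. Probes of 1 gene were averaged after each array's median was set to 0. A feature needed values on 3 arrays in each group, and the fit used limma 3.58.1 (R 4.3.3) with 3 group means and no covariate; p-values were adjusted by the Benjamini-Hochberg method, with a threshold of 0.05. For arrays, their number limits the precision.

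The members, lists and tests were chosen with earlier results of these data known. Named were all Oas genes, members that passed, and the 5 members with the smallest p in each direction and comparison. From each further list, genes that passed were named, or some of the 2 with the smallest p in a comparison, but not all of these. Other members were named as examples of their role. Alternatives were other normalizations, filters, sample sets, blocks and covariates, and each array left out in turn. Sequences came from RefSeq's GRCm38.p6 promoters.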

Additional observations from a re-analysis of the deposited data

Results flagged for a closer look

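In 103 sets of 4 or 5 arrays of a member in a group, 14 had 1 array far from the others, judged by its gap to the nearest array over the whole range; chance flags about 1 in 20 groups. On beta6 null array 1, Eif2ak2, a kinase that stops translation (-0.89, others from 0.05 to 0.24), Trim25 (-2.998) and Trim30a, a regulator of signalling (-7.30, others from -1.90 to -0.43), were lowest. On null array 4, Isg15 was at -4.42, with the others from 0.86 to 1.65. On TGFb1 array 1, Mx1 was at -0.20 and Eif2ak2 at -0.78. TGFb1 array 4 was lowest for Oasl1 (-0.86) and for Tgtp1 (-2.32, others from 0.89 to 1.55), and TGFb1 array 5 was lowest for Igtp (-0.97).

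In wild type, array 2 was highest for Zbp1, a sensor of Z-form nucleic acid (3.09), and lowest for Tap1 (-3.53, others from -0.70 to -0.16). Wild type array 3 was lowest for Ifitm2 (-1.18), array 1 highest for Gbp3 (1.78) and array 5 highest for Igtp (-0.56). The arrays with the widest spread, null array 1 and wild type array 2, held 5 of the 14. No group of Oas3 had such an array.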

How the results depend on the processing

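Oas3 kept its direction in 28 of 28 alternatives in both comparisons it passed. For null against wild type it passed in 27 of 28, with -3.31 to -3.06 when 1 array was left out, and did not pass with Xist as a covariate (-2.88, adjusted p = 0.160). For null with TGFb1 against null it passed in 25 of 28, with 2.30 to 2.80 when 1 array was left out. It did not pass after quantile normalization (2.37, adjusted p = 0.0546), with array spreads made equal (2.54, adjusted p = 0.0729) or with Xist as a covariate (2.19, adjusted p = 0.489); the cause was not tested. The number of members that passed for null against wild type was 0 with Xist, 1 to 2 when 1 array was left out, 2 among genes measured on all 5 arrays of every group, and 4 with array weights (Oas3, Oas1g, Trim25 and Samhd1). For null with TGFb1 against null it was 0 after quantile normalization, with equal spread and with Xist, 1 when any array was left out, and 2 with array weights (Oas3 and Ifih1). Over all features, calls for null against wild type were 126, from 0 with Xist to 433 with array weights, and for null with TGFb1 against null 94, from 0 with Xist, 11 with equal spread and 15 after quantile normalization to 1000 with array weights. The members' median difference ranged over the alternatives from -0.23 to 0.05, from -0.09 to 0.23 and from -0.16 to 0.03 in the 3 comparisons. It kept its sign in 27, 20 and 27 of 28 alternatives, so the sign was least stable for null with TGFb1 against null. No member passed for null with TGFb1 against wild type under any alternative. No paired analysis was possible because the labels give no replicate numbers that groups share.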
